A study of Homo sapiens with 12 samples.

Results

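The nuclear-encoded subunits of the mitochondrial respiratory chain were followed in cells that had been evolved under hydroxychloroquine (HCQ), a lysosomotropic antimalarial that blocks autophagy, and in control cells passaged without it. Members were the gene symbols of the count table that begin with the prefixes of the subunit families (NDUFA, NDUFB, NDUFC, NDUFS, NDUFV, SDHA to SDHD, UQCR, COX4I, COX5 to COX8 and ATP5), without assembly factors, pseudogenes and NDUFA4L2, and with CYC1 and CYCS added. This gave 94 of 28278 symbols. They were 37 symbols of complex I, 4 of complex II, 10 of complex III, 18 of complex IV, 19 of complex V, the carrier CYCS, and 5 read-through, antisense or divergent symbols that share a subunit's name.

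The respiratory chain passes electrons from NADH (complex I) and succinate (complex II) through ubiquinone to complex III, then through cytochrome c to complex IV and oxygen, and complex V uses the resulting proton gradient to make ATP. Most of its subunits are encoded in the nucleus and imported, and a core set is encoded by mitochondrial DNA. Complex II is the only complex built from nuclear genes alone, and it also works as succinate dehydrogenase in the tricarboxylic acid cycle.

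Polyadenylated RNA was sequenced from 12 pools of cells labelled OVCAR3 (described as an ovarian cancer line) or CCL218 (described as a colorectal cancer line). HCQ-evolved cells (label passage 15) had received 15 pulses of 48 h at 20 to 50 µM HCQ and then 7 days in medium without drug, and control cells (label passage 19) had been carried on a paired plate. Each plate was split by position into a left (L), a middle (M) and a right (R) pool of 31 wells, so that each of the 4 groups had 3 pools of one plate, and p-values measure only the spread between such pools. Evolved and control pools differed in passage number and plate as well as in HCQ, and these cannot be told apart. In pools of cells, fewer cells of a type and less RNA per cell cannot be told apart either.

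Libraries held 31147822 to 59965861 counts, and the members took 0.754 to 1.31% of them. Pools labelled OVCAR3 carried the intestinal genes VIL1 (78.5 to 290.1 CPM, counts scaled to a common library size) and LGALS4 (133 to 859 CPM). The Müllerian factor SOX17 had 0 counts in every pool and ESR1 had at most 2, so the label OVCAR3 is used here as a label and not as a cell type. Of 7 fibroblast markers 6 were below 1 CPM in every pool of each group, as were 2 of 3 endothelial markers, while the leukocyte list was led by LYZ, at 1294 to 2761 CPM under both labels.

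Of the 94 members, 83 passed the filter on low counts (1 CPM in at least 3 pools) in OVCAR3 and 82 in CCL218, where NDUFV2-AS1 did not. The other 11 members passed in neither line. Of these, 5 had 0 counts in every pool: the lung-type isoform COX4I2, the muscle isoform COX6A2, the testis isoform COX8C and the read-through symbols ATP5MF-PTCD1 and NDUFC2-KCTD14. The testis isoform COX7B2 had 0 to 1 counts per pool, the complex I subunit NDUFA6 and its divergent transcript NDUFA6-DT had 0 to 2, the complex I subunit NDUFA3 had 2 to 8, the muscle isoform COX7A1 had 0 to 10, and the ATP synthase paralog ATP5MGL had 2 to 12. NDUFA6 and NDUFA3 are parts of every complex I, and why they were almost uncounted was not tested. The complex IV isoforms of muscle, lung and testis were thus near 0, apart from COX6B2. Counts were given for 0 of the 13 mitochondrially encoded subunits, which were not analysed here.

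Levels of different genes were compared per kilobase of the canonical transcript, as mean CPM per kb over the 12 pools. The highest levels on this scale belonged to NDUFB9 (542 CPM per kb, membrane arm of complex I), COX4I1 (488), COX6A1 (471) and COX6B1 (469), which are subunits of complex IV, and UQCRH (391), the hinge protein of complex III. The lowest among tested members were COX6B2 (0.966 CPM per kb, the testis isoform of COX6B), ATP5F1E (1.01, the epsilon subunit of ATP synthase), the antisense symbols NDUFB2-AS1 (1.19) and NDUFV2-AS1 (1.34), and NDUFV3 (4.37, an accessory subunit of complex I). COX6B1 stood at 129.9 to 453 CPM per pool against 0.740 to 2.66 CPM for COX6B2, so the somatic isoform was far above the other in all 12 pools. Levels of ATP5F1E, which overlaps TUBB1 on the other strand, and of NDUFC2, which overlaps a read-through gene on its own strand, are uncertain, since reads in overlaps may not have been counted. UQCRH and its near-identical copy UQCRHL can share reads.

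The first question was whether HCQ evolution changed this gene set in the pools labelled OVCAR3. By edgeR's quasi-likelihood test with Benjamini-Hochberg adjustment over 12204 genes, 0 of 83 tested members were higher and 0 were lower at an adjusted p under 0.05, where 0.647% of all tested genes were called higher and 1.21% lower. At an unadjusted p under 0.05, 2 members were higher (COX6B2 and SDHA) and 0 were lower, where 8.38% and 7.87% of all tested genes were. DESeq2 called 0 members in either direction, where it called 4.44% of all genes higher and 4.61% lower, and limma voom called 0, where it called 0.729% and 1.39%. The members' median log2 fold change was -0.13, beside 0.02 over all tested genes, and 28 of 83 lay above 0. Standard errors of single members ran from 0.16 to 0.48 on the log2 scale (median 0.35), which is the precision these pools gave.

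In CCL218, 0 of 82 tested members were higher and 0 were lower by the same edgeR test, where 3.82% of 12241 genes were called higher and 2.64% lower. At an unadjusted p under 0.05, 2 members were higher (NDUFV1 and SDHA) and 4 were lower (NDUFS6, NDUFC2, ATP5F1E and the antisense NDUFB2-AS1), where 12.5% and 12.7% of all tested genes were. The median log2 fold change of the members was -0.34, beside -0.02 over all tested genes, and 17 of 82 lay above 0. Pairing by plate position was not clear in CCL218. Same-position pools had correlations of 0.51, 0.23 and 0.19 after removal of group means, while control M correlated more with evolved R (0.43). With position as a block edgeR called 5 members. With the block, NDUFV1 (log2 fold change 0.56, adjusted p = 0.0393) and SDHA (0.56, adjusted p = 0.0438) were higher and NDUFS6 (-0.62, adjusted p = 0.0300), NDUFS3 (-0.61, adjusted p = 0.0488) and ATP5MF (-0.71, adjusted p = 0.0398) were lower. In that fit 7.82% of all genes were called higher and 6.43% lower, against 2 of 82 and 3 of 82 members. DESeq2 called NDUFV1 and SDHA higher and NDUFC2 lower, where it called 9.02% and 8.72% of all genes, and limma voom called 0 members, where it called 4.13% and 2.73%. In the same evolved CCL218 pools, 4 of 7 tested colorectal epithelium markers were higher and 1 was lower by edgeR. CDH17 rose by 3.77, GPA33 by 2.86, CEACAM5 by 2.10 and CDX2 by 1.54 on the log2 scale, and LGR5 fell by 1.18. The summed level of the 10 listed markers was 1149 to 1625 CPM in control and 1172 to 1227 CPM in evolved pools of CCL218. In OVCAR3 0 of 7 were called, and the sum was 937 to 1143 CPM in control and 257 to 666 CPM in evolved pools. These sums mostly reflect LGALS4, which was at 879 to 1370 CPM in control and 730 to 833 CPM in evolved pools of CCL218. In OVCAR3 LGALS4 was at 643 to 859 CPM in control and 133 to 490 CPM in evolved pools. The part of these markers' shifts in the members' changes was not tested.

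**Figure D1:**
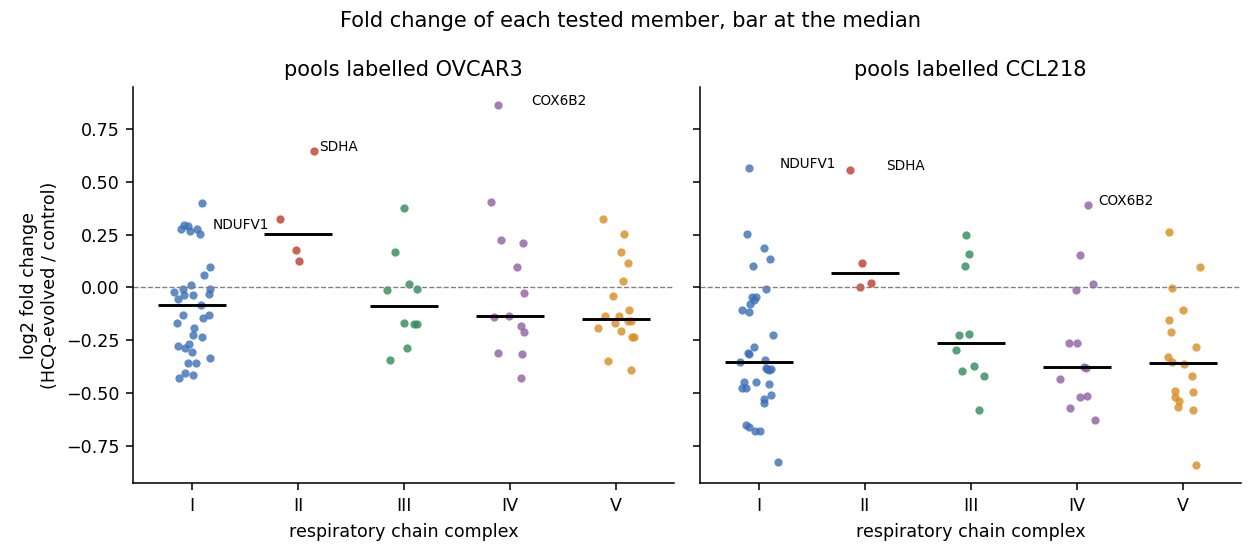
Log2 fold change of each tested member (HCQ-evolved over control pools, y axis) by complex (x axis), in pools labelled OVCAR3 (left) and CCL218 (right), with each point 1 gene and a bar at the median of the complex. All 4 complex II genes lie at or above 0 in both panels, led by SDHA, and the medians of the other complexes lie below 0.

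Complex II was the complex that stood at the top of this order under both labels, at a median log2 fold change of 0.25 in OVCAR3 and 0.07 in CCL218. With 4 genes these medians are a description and not a test. The transcripts of complex II have 1015 to 2693 bases, above the members' median of 781, and the part of length in this order was not tested. In CCL218 SDHB (0.00) and SDHD (0.02) lay near 0, and kept their sign in 8 and 11 of 14 alternatives. The largest gene product of complex II is SDHA, the flavoprotein that oxidizes succinate (chromosome 5, 218303 to 257082, plus strand, GENCODE 44 on hg38). SDHA was at 339.6, 356 and 459.8 CPM in the L, M and R control pools of OVCAR3 and at 628, 671 and 492 CPM in the HCQ-evolved pools. The CCL218 controls were at 274, 328 and 364 CPM and the evolved pools at 507, 473 and 443 CPM. All 3 evolved pools lay above all 3 control pools under both labels, although in OVCAR3 the evolved R pool was close to the control R pool.

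The log2 fold change of SDHA was 0.65 (standard error 0.21, adjusted p = 0.176, edgeR) in OVCAR3 and 0.56 (standard error 0.14, adjusted p = 0.0649, edgeR) in CCL218, neither past the threshold. It was called in CCL218 with the block, as given above, and in OVCAR3 when all 12 libraries shared one fit (0.63, adjusted p = 0.0440, edgeR, where 4.42% of all genes were called higher and 4.81% lower). Its pools did not overlap, as for 1583 of 12204 genes in the same direction in OVCAR3 (13%) and 2280 of 12241 in CCL218 (18.6%). Besides SDHA, COX6B2 was the only member with evolved pools all higher in OVCAR3, and NDUFV1 and NDUFS4 were the others in CCL218, while 0 members in OVCAR3 (12.7% of all genes) and 5 in CCL218 (17.3%) had evolved pools all lower. These 5 were NDUFC2, NDUFV3, NDUFA10, ATP5F1E and NDUFB2-AS1.

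SDHA has pseudogene copies that can share reads with it. SDHAP1 was itself at 9.45 to 9.91 CPM in control and 13.7 to 15.8 CPM in evolved pools of OVCAR3, and at 9.37 to 10.8 and 12.7 to 14.7 CPM in CCL218. SDHAP3 was at 1.83 to 5.02 CPM, and SDHAP2 was near 0. The counts of the copies were thus small beside those of SDHA.

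SDHB, the iron-sulfur subunit, was at 101, 97.5 and 139.6 CPM in OVCAR3 controls and at 152, 174 and 95.0 CPM in evolved pools. The CCL218 pools were at 91.9, 82.9 and 97.0 CPM (control) and at 103, 85.6 and 83.9 CPM (evolved). Evolved and control pools thus overlapped under both labels, at log2 fold changes of 0.33 (standard error 0.26) in OVCAR3 and 0.00 (standard error 0.14) in CCL218. The membrane anchors SDHC and SDHD, which bind ubiquinone, likewise overlapped. SDHC was at 71.1 to 90.9 CPM in control and 77.9 to 92.9 CPM in evolved OVCAR3 pools, and at 68.7 to 85.9 and 83.1 to 88.7 CPM in CCL218. SDHD was at 103 to 140.2 and 93.2 to 167 CPM in OVCAR3, and at 91.6 to 110.4 and 91.6 to 109 CPM in CCL218.

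**Figure D2:**
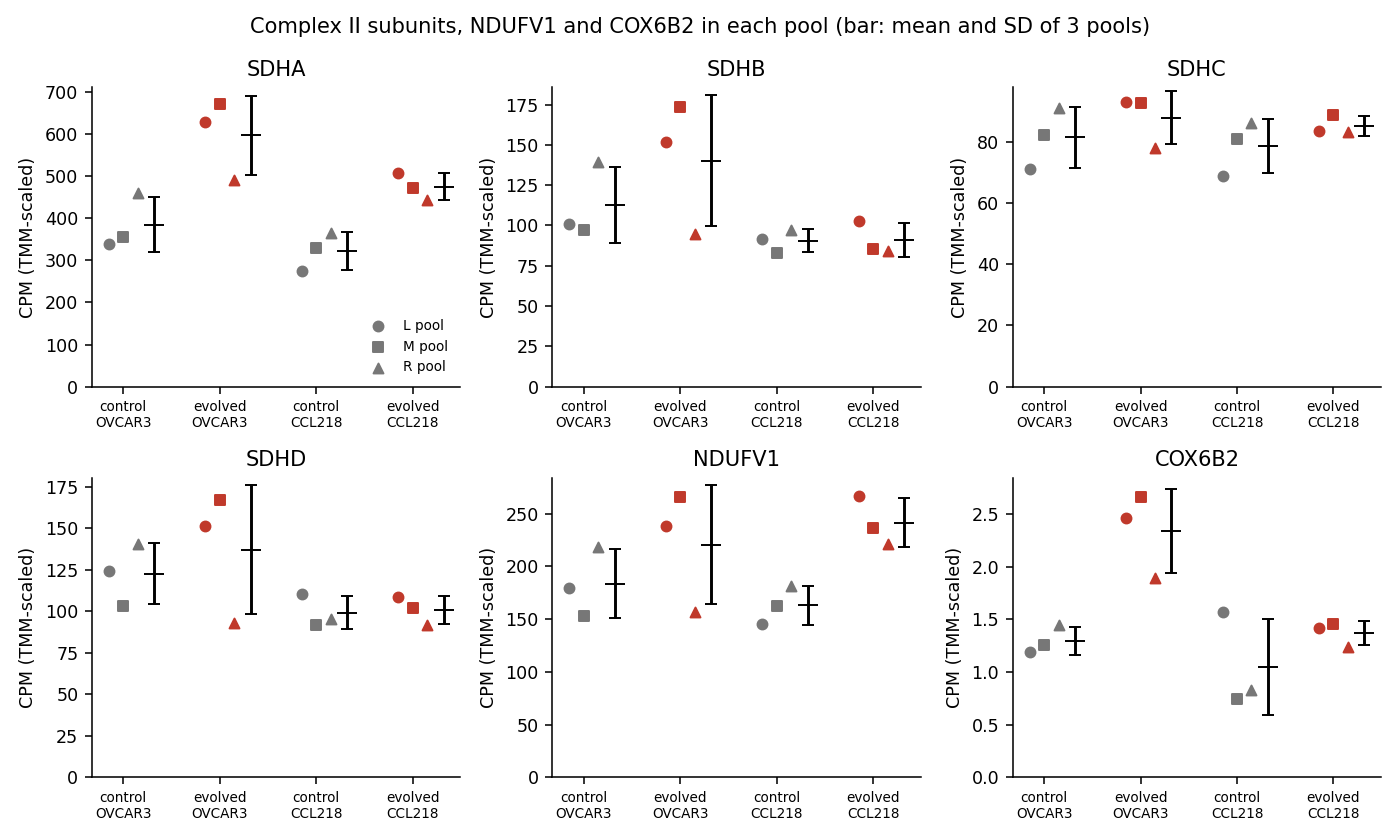
TMM-scaled CPM (y axes, each starting at 0) of the 4 complex II subunits, NDUFV1 and COX6B2 in each of the 12 pools, with control pools in grey, HCQ-evolved pools in red, marker shape giving the plate position, and a bar for the mean and SD of 3 pools. SDHA evolved pools lie above the controls under both labels, whereas SDHB, SDHC and SDHD overlap.

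Ratios of counts within a pool need no scaling between libraries, and they were taken for SDHA against its partners after its values had been seen. The ratio of SDHA to SDHB was 3.36, 3.65 and 3.29 in OVCAR3 control pools and 4.13, 3.87 and 5.17 in evolved pools. The ratios in CCL218 were 2.98, 3.96 and 3.75 in control and 4.92, 5.52 and 5.28 in evolved pools. The ratio of SDHA to SDHC was at most 5.06 in OVCAR3 controls and at least 6.31 in evolved pools, and at most 4.24 and at least 5.33 in CCL218. The ratio of SDHA to SDHD was at most 3.44 and at least 4.02 in OVCAR3, and at most 3.81 and at least 4.65 in CCL218. In all 6 of these comparisons the evolved pools were above the control pools, by 1.28 to 1.47 times in means, which is given as a description with no test. Such ratios do not remove a trend with transcript length, and the canonical transcript of SDHA has 2693 bases against 1015 (SDHB), 1308 (SDHC) and 1339 (SDHD). The highest ratio to SDHB in OVCAR3 (evolved R) and the lowest in CCL218 (control L) fell in the pools where short genes as a whole were lowest and highest. The part of transcript length in the ratios was not tested.

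To show the sequence at the starts of these genes, RefSeq promoters (250 bases before to 50 after the start, GRCh38.p14, written 5′ to 3′ on the gene's strand) were searched on both strands for the letters GCGCA, any base, then GCGC, which NRF1 binds, for CCGGAAG, which ETS factors such as GABP bind, and for ATGGCGG, which YY1 binds. These factors are known to act on nuclear respiratory genes. Capitals mark the matches, and no 2 of them overlap. The SDHA promoter (chr5:218070-218369, plus strand) held 4 matches to the NRF1 letters at a regular spacing, from positions 85, 134, 183 and 232, and 0 to the others. It is shown with those of SDHB (chr1:17053983-17054282, minus strand) and SDHD (chr11:112086623-112086922, plus strand), whose transcripts overlapped between groups, and of NDUFV1 (chr11:67606686-67606985, plus strand), the other member that was higher in CCL218 with the block.
SDHA: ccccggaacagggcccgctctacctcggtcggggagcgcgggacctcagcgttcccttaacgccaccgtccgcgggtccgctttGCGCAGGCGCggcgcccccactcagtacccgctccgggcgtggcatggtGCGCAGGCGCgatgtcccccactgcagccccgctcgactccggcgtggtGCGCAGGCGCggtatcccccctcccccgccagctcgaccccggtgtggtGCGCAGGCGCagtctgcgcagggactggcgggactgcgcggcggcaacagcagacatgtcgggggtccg
SDHB: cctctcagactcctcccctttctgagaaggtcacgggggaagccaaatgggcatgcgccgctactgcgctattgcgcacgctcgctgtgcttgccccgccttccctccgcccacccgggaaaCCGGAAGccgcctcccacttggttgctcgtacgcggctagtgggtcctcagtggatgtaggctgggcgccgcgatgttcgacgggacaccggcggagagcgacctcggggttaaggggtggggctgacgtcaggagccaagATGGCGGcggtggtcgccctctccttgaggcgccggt
SDHD: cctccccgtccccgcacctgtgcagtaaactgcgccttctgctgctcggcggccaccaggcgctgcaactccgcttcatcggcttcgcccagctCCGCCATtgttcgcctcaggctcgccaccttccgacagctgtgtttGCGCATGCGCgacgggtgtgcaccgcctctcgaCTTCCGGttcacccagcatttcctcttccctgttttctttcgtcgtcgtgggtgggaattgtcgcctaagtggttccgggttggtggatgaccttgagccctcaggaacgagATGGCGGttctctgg
NDUFV1: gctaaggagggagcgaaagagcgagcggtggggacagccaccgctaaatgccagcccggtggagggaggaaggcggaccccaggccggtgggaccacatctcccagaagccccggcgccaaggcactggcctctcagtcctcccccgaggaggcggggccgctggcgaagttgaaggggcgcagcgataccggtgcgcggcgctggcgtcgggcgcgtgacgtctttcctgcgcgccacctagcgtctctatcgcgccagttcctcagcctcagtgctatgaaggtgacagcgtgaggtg

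SDHB held 1 match each to the ETS and YY1 letters, SDHD held 1 NRF1, 1 ETS and 2 YY1 matches, and NDUFV1 held 0 of any. Promoters were listed for 73 of the 94 members (86 promoters, some genes with more than 1). The NRF1 letters were in 18.6% of them and in 5.78% of all 35116 promoters, the ETS letters in 24.4% and 10.3%, and the YY1 letters in 27.9% and 5.55%. Among the members SDHA had the most NRF1 matches. These are matches of letters and not measured binding, and SDHA and NDUFV1, the members highest in CCL218, differed in holding them.

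In complex I, 25 of 35 tested genes in OVCAR3 and 30 of 35 in CCL218 had a log2 fold change below 0, with medians of -0.08 and -0.35. NDUFV1, the subunit that carries the FMN and first takes electrons from NADH (chromosome 11, 67605653 to 67612554, plus strand), lay above 0 in CCL218. It was at 145, 162 and 182 CPM in control pools and at 266, 237 and 222 CPM in evolved pools, with all evolved pools higher. Its log2 fold change there was 0.56 (standard error 0.14, adjusted p = 0.0543, edgeR). In OVCAR3, controls were at 179.7, 153 and 218 CPM and evolved pools at 239, 266 and 157 CPM, so that groups overlapped (log2 fold change 0.28, standard error 0.24). The change of NDUFV1 in CCL218 minus that in OVCAR3 was 0.30 (standard error 0.29, adjusted p = 0.982, edgeR interaction). NDUFAB1, the acyl carrier protein of complex I, was the highest of the complex in OVCAR3, at 0.40 (standard error 0.35).

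The matrix arm modules and the membrane arm were alike in OVCAR3, at medians of -0.07 (N, the NADH module, 8 genes), -0.04 (Q, the ubiquinone module, 7 genes) and -0.11 (P, the proton-pumping membrane arm, 20 genes). In CCL218 they were at -0.34, -0.32 and -0.37. Within the N module NDUFV1 and NDUFS6 lay at opposite ends in CCL218. NDUFS6, a zinc-binding accessory subunit, was at 109, 57 and 79.4 CPM in CCL218 controls and at 59.2, 45.8 and 50.6 CPM in evolved pools, where the L pool still lay above the control M pool. NDUFS3, a core subunit of the Q module, was at 79.0, 36.7 and 44.2 CPM against 39.2, 31.8 and 29.3 CPM. The control L pool was the highest of all 6 pools for both genes, and the groups overlapped for both.

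The 5 lowest log2 fold changes in CCL218 were those of ATP5MF (-0.84, a membrane subunit of ATP synthase), NDUFS5 (-0.82, complex I), NDUFB2-AS1 (-0.77), NDUFB10 (-0.68, complex I) and NDUFS3 (-0.68). In OVCAR3 they were those of NDUFB2-AS1 (-0.57), NDUFS5 (-0.43), COX5B (-0.43, complex IV), NDUFB1 (-0.42) and NDUFB10 (-0.41), both of complex I. None of these had an adjusted p under 0.14 by edgeR. NDUFB2-AS1 is an antisense gene whose reads cannot be told apart from those of its partner if counting ignored strand. ATP5MF overlaps PTCD1 and a read-through gene on its own strand, and NDUFS3 overlaps PTPMT1 on its own strand. Reads in these overlaps may not have been counted either.

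Complex III had 7 of 10 genes below 0 under both labels, with medians of -0.09 in OVCAR3 and -0.26 in CCL218. UQCRFS1, the Rieske iron-sulfur protein, was among the highest members, at log2 fold changes of 0.38 and 0.25 (standard errors 0.34 and 0.22). CYC1, the heme-bearing cytochrome c1, was at 207 to 256 CPM in OVCAR3 controls and 186 to 244 CPM in evolved pools, and at 183 to 226 and 159 to 191 CPM in CCL218. CYCS, the soluble cytochrome c that carries electrons on and also acts in apoptosis, was at 104 to 147 and 95.9 to 189 CPM in OVCAR3, and at 109 to 133 and 109.8 to 126 CPM in CCL218. Control and evolved pools of both genes overlapped under both labels. UQCRH (-0.17 and -0.30) and its copy UQCRHL (-0.17 and -0.23) had like fold changes in the order OVCAR3 and CCL218.

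Complex IV had 8 of 13 genes below 0 in OVCAR3 (median -0.14) and 10 of 13 in CCL218 (median -0.38). COX6B2 had the highest log2 fold change of all members in OVCAR3, 0.86 (standard error 0.27, adjusted p = 0.155, edgeR), at 1.19, 1.26 and 1.44 CPM in control and 2.46, 2.66 and 1.89 CPM in evolved pools. In CCL218 it was at 1.57, 0.740 and 0.832 CPM against 1.42, 1.46 and 1.24 CPM, with the control L pool the highest. COX4I1, the regulatory subunit IV, was at 678, 302 and 538 CPM in OVCAR3 controls and at 458, 531 and 217 CPM in evolved pools. In CCL218 it was at 515, 237 and 288 CPM against 266, 215 and 222 CPM. NDUFA4, counted with complex IV, had log2 fold changes of 0.40 (standard error 0.31) and -0.01 (standard error 0.17). In the same order, COX6A1 (-0.31 and -0.63), COX7B (-0.03 and -0.38), COX8A (0.23 and -0.43) and COX7A2 (0.21 and 0.16) also had overlapping pools, and COX7A2L, a factor of supercomplexes, was at 92.3 to 233 CPM over all pools.

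Complex V had 13 of 18 genes below 0 in OVCAR3 (median -0.15) and 16 of 18 in CCL218 (median -0.36). ATP5F1B, the catalytic beta subunit, was among the 5 highest members in CCL218 at 0.26 (standard error 0.24). The 3 genes for the same c-ring protein, ATP5MC1, ATP5MC2 and ATP5MC3, had log2 fold changes of 0.12, -0.23 and 0.33 in OVCAR3 and -0.36, -0.15 and 0.10 in CCL218, all with overlapping pools. ATP5IF1, the inhibitor that blocks reverse ATP hydrolysis, was at 139 to 319.6 CPM in OVCAR3 controls and 105 to 255 CPM in evolved pools, and at 112 to 257 and 109 to 131 CPM in CCL218.

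Except among the evolved CCL218 pools, pools of one group differed from each other by more than the members' median change. Most members moved together from pool to pool. As deviation from the mean of the 6 pools of the same label, the median of the 83 members was 0.46, -0.46 and 0.19 (log2) in the L, M and R controls of OVCAR3 and 0.17, 0.38 and -0.75 in the evolved pools. The medians in CCL218 were 0.65, -0.22 and -0.02 in control and 0.09, -0.20 and -0.23 in evolved pools. The highest pools were the L controls under both labels, and the lowest was the evolved R pool of OVCAR3.

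**Figure D3:**
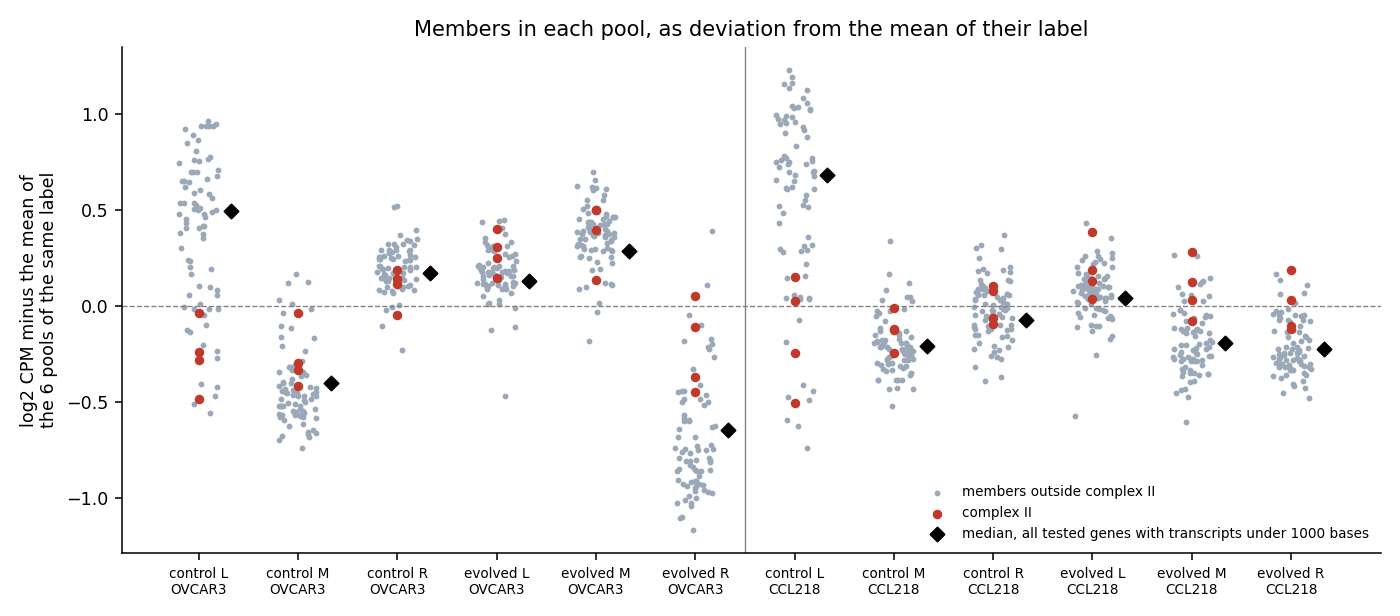
Deviation of each tested member in each pool (y axis, log2 CPM minus the mean of the 6 pools of the same label), with complex II in red, other members in grey, and a black diamond at the median of all 853 tested genes with transcripts under 1000 bases. The grey cloud follows the diamond from 0.68 in the CCL218 control L pool to -0.65 in the OVCAR3 evolved R pool. In both control L pools complex II lies within the lower part of the cloud, at medians of -0.26 (OVCAR3) and -0.11 (CCL218).

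Members have short transcripts, with a median of 781 bases, and other short genes moved the same way in the same pools. Over all 853 tested genes with canonical transcripts under 1000 bases, the median deviation was 0.49, -0.40 and 0.17 in OVCAR3 controls and 0.13, 0.28 and -0.65 in evolved pools. In CCL218 it was 0.68, -0.21 and -0.07, then 0.04, -0.20 and -0.23. Over the 11358 longer genes it was between -0.03 and 0.03 in every pool. The 35 tested members of 1000 bases or more moved further than those longer genes in most pools. Their medians were -0.02, -0.33 and 0.17 in OVCAR3 controls and 0.17, 0.36 and -0.46 in evolved pools. In CCL218 they were 0.16, -0.13 and 0.05 in control and 0.10, -0.06 and -0.11 in evolved pools. The 46 tested members under 1000 bases had median log2 fold changes of -0.17 in OVCAR3 and, for the 45 tested there, -0.39 in CCL218, beside -0.16 and -0.33 for all short genes. The 35 longer members were at 0.09 and -0.05, beside 0.03 and 0.00 for all longer genes. Some canonical transcripts may not be the form these cells use, and what made pools differ along transcript length was not tested.

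**Figure D4:**
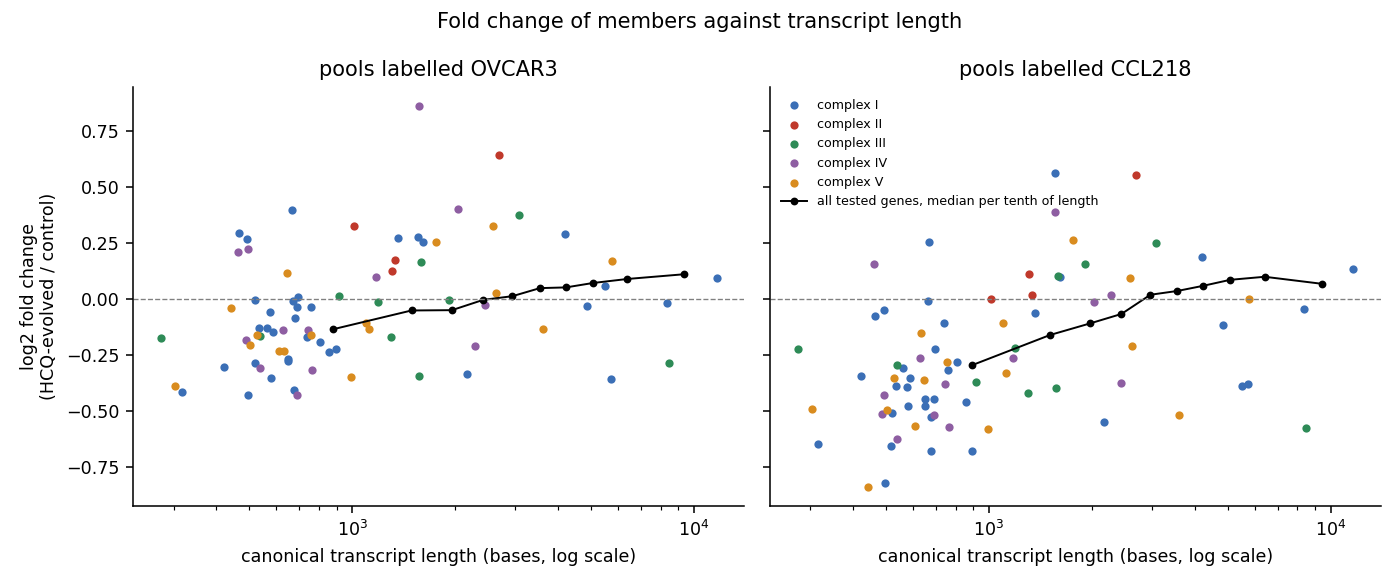
Log2 fold change of each tested member (y axis) against the length of its canonical transcript (x axis, bases, log scale), coloured by complex, for pools labelled OVCAR3 (left) and CCL218 (right), with the black line joining the medians of all tested genes in 10 equal bins of length. The line lies lowest among the shortest genes, at -0.14 and -0.30, where 51 and 50 of the members lie, and SDHA, NDUFV1 and COX6B2 lie above it.

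Single pools set the direction of the members' median in OVCAR3. Without the evolved R pool it was 0.14, with 66 of 83 members above 0, and without the control L pool it was 0.08. With both left out, a choice made after seeing the data, it was 0.34 with 75 of 83 members above 0, and 0 members were called. In CCL218 the control L pool mattered most. Without it the median was -0.01 with 40 of 82 above 0, and 5 members were called higher (NDUFV1, SDHA, COX7A2, NDUFS4 and COX6B2) and 0 lower, where 13.6% and 11.6% of all genes were called. When the trend with transcript length and GC content was removed from each library, the medians were -0.04 and -0.09. Then SDHA and COX8A were called higher in OVCAR3, where 5.04% of all genes were called higher and 3.66% lower. In CCL218, SDHA, COX7A2 and NDUFS8 were called higher and NDUFC2 and NDUFS3 lower, where 9.6% and 9.78% of all genes were called. With the block as well, SDHA, NDUFV1 and COX7A2 were called higher and NDUFS3 and ATP5MF lower, where 8.96% and 8.29% of all genes were called. SDHA kept its direction in all 15 alternatives in OVCAR3 (0.54 to 0.79) and all 14 in CCL218 (0.45 to 0.65), and was called in 2 and 5 of them.

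The second question was whether the response differed between the pools of the 2 labels. Whether the labels stand for distinct cell lines was not tested, and the marker values above leave OVCAR3 as a label only, so these are differences between labels. In the interaction across 12 pools, 0 of 83 members had an adjusted p under 0.05 by edgeR, where 0.69% of all genes were called higher and 0.182% lower in CCL218 than in OVCAR3. At an unadjusted p under 0.05 there were also 0, where 5.41% of all genes were higher and 3.7% lower. DESeq2 called 0 members, where it called 2.43% and 1.24% of all genes, and limma voom called 0, where it called 0.761% and 0.143%. The smallest unadjusted p belonged to COX8A (difference -0.63, standard error 0.46), NDUFA5, NDUFS6, ATP5MF and COX6B2. With the length and GC trend removed COX8A was called lower (-0.53, adjusted p = 0.0299, edgeR, where 1.88% of all genes were called higher and 1.73% lower).

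Control pools of the labels were compared in the same way. Of 83 members, 0 differed by edgeR, where 1.35% of all genes were called higher and 2.07% lower in CCL218. At an unadjusted p under 0.05, 0 were higher and 3 were lower (NDUFV2-AS1, NDUFS4 and COX5A), where 6.6% and 7.88% of all genes were. In this comparison limma voom called 0, where it called 1.41% and 2.17% of all genes, and DESeq2 called 1, NDUFS4 (-0.80, adjusted p = 0.0495 by DESeq2's Wald test, where 2.97% of all genes were called higher and 4.37% lower). NDUFS4, an accessory subunit needed for a stable N module, was at 47.2, 35.6 and 56.4 CPM in OVCAR3 and at 29.9, 25.4 and 24.8 CPM in CCL218 controls. Without the evolved OVCAR3 R pool, which enters this fit through the shared spread, edgeR also called NDUFS4 (-0.80, adjusted p = 0.0256, where 2.67% of all genes were called higher and 3.49% lower). The members' median was -0.45, with 3 of 83 above 0. The 46 members under 1000 bases were at a median of -0.51, beside -0.41 for all genes under 1000 bases. The 35 members of 1000 bases or more were at -0.31, with 3 above 0, beside 0.03 for all genes of that length.

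Around the subunits, 3 lists of respiratory chain genes were read in the same fits. Of 60 assembly factors 57 were in the table and 55 were tested. In OVCAR3 0 were called, where 0.647% of all genes were called higher and 1.21% lower. In CCL218 0 were called higher and 1 lower, COA7 (-0.69, standard error 0.14, adjusted p = 0.0342, edgeR), a factor for assembly of complex IV. There 3.82% of all genes were called higher and 2.64% lower, and 41 of 55 factors lay below 0 (median -0.20). COA7, not called in OVCAR3, was also lower there, at 45.4 to 55.3 CPM in control and 28.8 to 35.8 CPM in evolved pools. Of 16 regulators of respiratory chain transcription 15 were tested. In OVCAR3 0 were called, and in CCL218 2 were lower, the coactivator PPRC1 (-0.66, adjusted p = 0.0381, edgeR) and the mitochondrial helicase TWNK (-0.73, adjusted p = 0.0239, edgeR). TWNK was also lower in OVCAR3, at 53.6 to 64.4 CPM in control and 25.6 to 36.6 CPM in evolved pools, while PPRC1 pools overlapped there. Evolved pools were all lower in OVCAR3 for 12.7% of all genes.

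Of 12 genes that link oxygen supply to the chain, 10 were tested in OVCAR3 and 11 in CCL218. By edgeR 1 was called higher in OVCAR3 (0.647% of all genes) and 3 in CCL218 (3.82%). The number called lower was 0 under both labels (1.21% and 2.64% of all genes), and 8 lay above 0 under each (medians 0.54 and 0.11). The list was chosen with earlier results of these data known. BNIP3L, a mitophagy receptor, was at 114, 118 and 126 CPM in OVCAR3 controls and at 203, 226 and 242 CPM in evolved pools. Control and evolved CCL218 pools were at 94.8, 105 and 93.5 CPM and at 233, 257 and 220.1 CPM. It rose under both labels, by 0.92 (adjusted p = 0.0406, edgeR) and 1.27 (adjusted p = 0.00275, edgeR) on the log2 scale. PDK1 and PDK3, kinases that inhibit pyruvate dehydrogenase and so limit substrate for the chain, rose in CCL218 by 1.14 (adjusted p = 0.0251, edgeR) and 1.24 (adjusted p = 0.0323, edgeR), and had log2 fold changes of 1.08 and 1.36 in OVCAR3 (adjusted p = 0.0896 and 0.101, edgeR). NDUFA4L2, a paralog of NDUFA4 induced in low oxygen, was at 335, 150.3 and 192 CPM in OVCAR3 controls and at 369, 438 and 300.0 CPM in evolved pools. In CCL218 it was at 209.8, 85.9 and 68.2 CPM against 294, 259.8 and 291 CPM, with all evolved pools higher and an adjusted p of 0.121 by edgeR. HIGD2A, a factor for complex IV and supercomplexes, was at the other end, at -0.69 (standard error 0.54) and -0.74 (standard error 0.49). BNIP3 (-0.06), ISCU (-0.26), LONP1 (0.04), CHCHD2 (0.08) and HIGD1A (0.11) lay between these ends in CCL218, and the host gene MIR210HG was at 1.20 and 0.99, not called. COX4I2, the other subunit paralog of this list, had 0 counts.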

How the data were processed

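The authors aligned reads of pooled cells to hg38 with STAR, removed duplicates with RmDup and deposited raw counts per gene symbol from featureCounts, with versions not given in the sources used here. All 12 columns matched a sample, leaving 0 without one. Groups came from the sample titles. Members and lists were chosen with earlier results of these data known. Named were all called members, the 5 highest and 5 lowest log2 fold changes per line, the 5 smallest interaction p, the 5 highest and lowest levels per kb, complex II, CYCS, CYC1 and isoform pairs. COX5A, NDUFC2, NDUFS8, NDUFA10 and the ratios of counts were added after values were seen.

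Counts were scaled by TMM over genes with 1 CPM in at least 3 libraries, each line was fitted alone with edgeR 4.0.16 (quasi-likelihood, robust, R 4.3.3), and p-values were adjusted by Benjamini-Hochberg over all tested genes at 0.05. The interaction and the control comparison used all 12 libraries. On simulated data, 176 of 200 genes changed by 1.5 (log2) were recovered in OVCAR3 (12102 genes) and 196 of 200 in CCL218 (12141 genes). False calls numbered 10 and 8. The members' own changes were smaller (0.86 at the highest, -0.84 at the lowest), and simulated pools held no trend with transcript length. Recovery of changes of the members' size was thus not measured. DESeq2 1.42.0 and limma 3.58.1 (voom) were alternatives. Same-position correlations of the CCL218 pools after removal of group means were 0.51 (L), 0.23 (M) and 0.19 (R). Control M correlated more with evolved R (0.43), so pairing by position was not clear there.

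Transcript lengths and coordinates were taken from GENCODE 44 on hg38, where 92 of 94 members matched. The counts of the exome and of the screens were not used here. Counting error is small at these depths, and 3 counts were taken as the floor of detection.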

Additional observations from a re-analysis of the deposited data

How the results depend on the processing

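Each count of called members was 0, and most alternatives left it there. In OVCAR3 the number called higher was 2 with the length and GC trend removed and 1 with all 12 libraries in one fit, and the number called lower was 0 throughout. In CCL218 it was 2 higher and 1 lower with DESeq2, 2 higher and 3 lower with the replicate block, 3 higher and 2 lower with the length and GC trend removed, and 3 higher and 2 lower with the block and that trend removed together. Leaving out 1 pool at a time gave 0 to 5 higher in CCL218, the 5 without the control L pool, and 0 lower. The interaction gave 1 with the length and GC trend removed. The control comparison gave 1 with DESeq2 and 0 to 1 with 1 pool left out, the 1 without the evolved OVCAR3 R pool. The other alternatives (RLE size factors, no filter on low counts, limma voom) gave 0 for each count.

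Plate position did not pair the OVCAR3 pools (same-position correlations of 0.40, -0.66 and -0.48), and there the replicate block gave 0 members in either direction, with 17 genes higher and 64 lower over all genes against 79 and 148 without it. The control comparison could not be fitted with the block, since position is nested in the line, and was not run. The median log2 fold change of members was -0.34 to 0.34 in OVCAR3 and -0.51 to -0.01 in CCL218 over all alternatives. With 3 pools of 1 plate per group and median standard errors of 0.35 and 0.25, changes of the size seen in most members could not be separated from the spread between pools.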
